A study of Rattus norvegicus with 18 samples.

Results

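The genes described here encode nuclear partners of β-catenin: the LEF/TCF factors that carry it to DNA, its coactivators and other cofactors, and a kinase that acts on LEF/TCF. Of 10 listed symbols, 9 were among the 13188 genes of the deposited expression table, and these 9 are Lef1, Tcf7l1, Tcf7l2, Tcf3, Ctnnb1, Pygo2, Ruvbl1, Ruvbl2 and Nlk; Bcl9 was not analysed here. The members were listed by name, with earlier results of these data known, so that counts over them are a description and not independent evidence of a direction. Poly-A RNA was sequenced from 18 libraries of HO15.19 cells, a Rat1 rat fibroblast line in which both copies of the endogenous myc gene were disrupted (myc-/-), in 6 groups of 3. One group was labelled as myc-/- cells with no transfection, and one as myc-/- cells given a control siRNA (myc-/- siCtrl). The other 4 groups carried human MYC, stably introduced with a retroviral vector (myc-/- + MYC), and were untransfected, given siCtrl, or given siAHR-2 or siAHR-5, a pair of siRNAs that target the aryl hydrocarbon receptor (AHR). Per the study's methods, cells without MYC carried the empty vector. All groups share the myc-/- background of a single line and, per the labels, medium with 10% serum (the study's methods give a lower share for these cells), and siRNA was used at 40 nM for 48 h. The study's methods speak in general of repeated experiments and of technical replicates, and do not say which of these the 3 libraries of a group are, so that p-values measure the spread between these libraries, which may be technical.

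In canonical WNT signaling, β-catenin that escapes degradation enters the nucleus and binds LEF1, TCF7L1 or TCF7L2, HMG-box proteins that recognise a short DNA element in WNT target genes. Without β-catenin these factors recruit corepressors of the Groucho/TLE family, and with it they recruit coactivators, among them the BCL9 and Pygopus proteins. The ATPase RUVBL1 (pontin) also binds β-catenin and is known to raise its transcriptional activity, whereas its relative RUVBL2 (reptin) is known as an antagonist of pontin that represses it. Nemo-like kinase (NLK) phosphorylates LEF/TCF proteins. The symbol Tcf3 needs care, because TCF3 is also a common name of the TCF7L1 protein: the RefSeq gene table lists the rat gene Tcf3 with the synonyms Pan2 and Tcfe2a, which makes it the basic helix-loop-helix E protein E2A, and lists Tcf3 as a synonym of Tcf7l1. Values under the symbol Tcf3 are therefore described as those of an E protein and separately from those of the HMG-box factors.

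MYC with its partner MAX binds E-boxes, of which CACGTG is the canonical form, and the upstream sequences of 4 members are shown for this reason: Lef1, Ruvbl1 and Ruvbl2, which rose with MYC in both sets, and Tcf7l2, the single member that was lower with MYC in both. Each is the 150 bases before the RefSeq start site in GRCr8, a later build than the rn6 to which the reads had been aligned, written 5′ to 3′ on the strand of the gene. Capitals mark a variant E-box. Lef1 lies at chr2:222340563-222340712 on the plus strand, Ruvbl1 at chr4:122489604-122489753 on the plus strand, Ruvbl2 at chr1:105051721-105051870 on the minus strand and Tcf7l2 at chr1:264791185-264791334 on the plus strand.
Lef1: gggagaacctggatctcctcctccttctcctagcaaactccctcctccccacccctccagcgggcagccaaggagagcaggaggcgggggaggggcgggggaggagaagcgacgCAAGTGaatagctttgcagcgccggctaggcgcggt
Ruvbl1: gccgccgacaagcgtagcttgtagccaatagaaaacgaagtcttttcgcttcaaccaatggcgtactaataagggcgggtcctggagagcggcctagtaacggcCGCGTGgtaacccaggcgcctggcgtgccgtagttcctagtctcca
Ruvbl2: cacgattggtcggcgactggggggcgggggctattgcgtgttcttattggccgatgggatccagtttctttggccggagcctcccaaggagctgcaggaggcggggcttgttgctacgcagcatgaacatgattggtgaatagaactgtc
Tcf7l2: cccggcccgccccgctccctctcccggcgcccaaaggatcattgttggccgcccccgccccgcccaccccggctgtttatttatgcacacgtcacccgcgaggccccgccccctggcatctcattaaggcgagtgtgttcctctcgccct

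The search covered 250 bases before and 50 bases after the start site on both strands, and RefSeq gave such a window for all 9 members and for 9842 genes of the table. CACGTG was in none of the 9 windows, and it was in 8.9% of the windows of table genes. Lef1 held the variant CAAGTG from base −36 to −31, a form found in 11.1% of the windows, and CACCTG from base 31 to 36 after the start, a form found in 18.5%. Ruvbl1 held CACGCG on the opposite strand from base −46 to −41, which 15.5% of the windows also held. Nlk held CACGCG from base −25 to −20 and CACCTG at 2 places. The windows of Ruvbl2, Tcf7l1, Tcf7l2, Tcf3, Ctnnb1 and Pygo2 held none of these 4 forms, and no member window held the LEF/TCF core letters CTTTGAT (2.49% of windows) or CTTTGAA (3.79%). The 4 E-box forms do not overlap each other in these windows. A match says only that the letters are there, and no binding was measured in these data. An E-box outside these short windows would be missed. The study reports conserved E-boxes in the human, rat and mouse promoters of the gene of LEF1. By ChIP it found MYC at the first of them in colon cancer cells, but not at the others. In public ChIP data of other cells it found MYC and MAX at those others.

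The deposited values are normalized log2 values in 2 sets on different scales: the 6 libraries labelled myc-/- + MYC or myc-/- siCtrl form one (set of 6), and the remaining 12 libraries form the other (set of 12). These sets separated along the leading principal component, which held 74.7% of the variance, so the levels of groups were tested only within a set. The ranges of some markers are given for each set as a description. Across the sets, the log2FC with MYC of each set were also set against each other. Within the set of 6 only the cells without MYC, and within the set of 12 only the cells with MYC, were labelled as siCtrl-transfected, so that MYC and the transfection cannot be told apart in the MYC comparisons. The deposited column names of the libraries labelled myc-/- siCtrl read only control, without an siRNA, and whether the transfection labels of the 2 groups without MYC are right could not be settled from the values; the labels were followed. Ahr checked the labels of the siRNAs against AHR: the myc-/- + MYC siCtrl libraries had 13.22 to 13.34, the siAHR-2 libraries 11.97 to 12.03 and the siAHR-5 libraries 11.76 to 11.95. It checks no label of the set of 6, where the libraries labelled myc-/- siCtrl had 12.39 to 12.50. The rat gene Myc gave signal in all libraries, at 9.16 to 9.47 in those labelled myc-/- siCtrl against 8.01 to 8.08 in myc-/- + MYC (log2FC −1.26, limma adjusted p = 4.21e-08), and at 10.82 to 10.94 in myc-/- against 8.16 to 8.27 in myc-/- + MYC siCtrl (log2FC −2.68, limma adjusted p = 6.02e-07). Which exons were disrupted is not given in the sources used here, so this row does not check the myc-/- label, and reads of the human transgene, which would check the MYC label, were not analysed here. Of 12 fibroblast markers all were in the table, with Vim between 18.32 and 19.70 and Fn1 between 17.67 and 20.63, while Col1a2 and Fap stayed low. Dcn lay between 11.19 and 11.77 in the set of 6 against 6.66 to 7.78 in the set of 12. Lum lay between 7.96 and 9.38 in the former against 5.80 to 6.88 in the latter. Of the epithelial markers, Epcam was at most 2.42 and Cdh1 at most 4.31, but Krt8 lay between 6.02 and 9.05, and Krt19 between 7.30 and 7.73 in the set of 6 against 2.42 to 2.46 in the set of 12. Of the blood cell markers, Ptprc was at most 4.65, Cd3d at most 4.55, Cd8a at most 2.59 and Cd4 at most 0.81, but Cd3e lay between 6.63 and 9.39, and of the macrophage markers Cd68 lay between 6.76 and 7.55 and Csf1r between 4.95 and 6.27. Of the endothelial markers, Pecam1 lay between 6.47 and 7.57, and Cdh5 between 6.48 and 7.18 in the set of 6 against 4.70 to 4.97 in the set of 12. Replicate 2 of myc-/- stood apart: it was the library farthest from the mean of its group in 64.5% of 10716 genes with a mean of at least 5, ahead of myc-/- + MYC replicate 1 (53.4%) and siAHR-5 replicate 2 (51.8%). Without it, the same number of members passed for MYC in the set of 12, and Lef1 (1.92), Ruvbl1 (0.97) and Ruvbl2 (1.28) stayed past the cutoffs.

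LEF1 was the member with the largest rise with MYC in both sets. On the log2 scale Lef1 measured 8.85, 8.89 and 8.98 in the 3 myc-/- siCtrl libraries and 10.24, 10.22 and 10.24 in the 3 myc-/- + MYC libraries. It measured 9.28, 9.42 and 9.45 in myc-/- cells of the set of 12 and 11.33, 11.26 and 11.26 in myc-/- + MYC siCtrl cells. Every library with MYC lay above every library without it, and the gap between the groups was many times the spread within them. The log2FC was 1.32 (SE 0.0543, 95% interval 1.20 to 1.44, limma adjusted p = 1.40e-09), a 2.50-fold rise, in the set of 6 and 1.90 (SE 0.0595, 95% interval 1.75 to 2.05, limma adjusted p = 2.28e-06), a 3.73-fold rise, in the set of 12. Among all 13188 genes these were the rises of rank 363 and rank 115. In these bulk samples, fewer cells that express a gene and less of its RNA per cell cannot be told apart.

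TCF7L1, an HMG-box factor that acts mostly as a repressor, showed no such difference. Tcf7l1 measured 11.64, 11.69 and 11.68 in myc-/- siCtrl and 11.87, 11.70 and 11.61 in myc-/- + MYC libraries. It measured 11.96, 11.86 and 12.003 in myc-/- and 11.83, 11.87 and 11.73 in myc-/- + MYC siCtrl libraries. The groups overlapped in both sets. The log2FC was 0.06 (95% interval −0.07 to 0.19, limma adjusted p = 0.403) in one and −0.13 in the other (95% interval −0.27 to 0.01, limma adjusted p = 0.0919), so that a change as large as that of Lef1 lies outside both intervals. The sign of the first of these rests on 1 library, since without myc-/- + MYC replicate 1 it was −0.02.

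TCF7L2, the factor known for sustaining the intestinal stem cell compartment, was lower with MYC in both sets. Tcf7l2 measured 12.75, 12.76 and 12.69 in myc-/- siCtrl and 12.28, 12.35 and 12.34 in myc-/- + MYC libraries. The set of 12 gave 13.68, 13.63 and 13.67 in myc-/- and 13.12, 13.06 and 13.10 in myc-/- + MYC siCtrl libraries. The groups did not overlap, but the log2FC of −0.41 (SE 0.0349, limma adjusted p = 7.90e-07) and −0.56 (SE 0.0280, limma adjusted p = 1.34e-05) amount to 0.755 and 0.677 of the level without MYC, both short of the fold cutoff (1.50-fold in either direction), and the difference passed only the test without a fold cutoff.

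**Figure D1:**
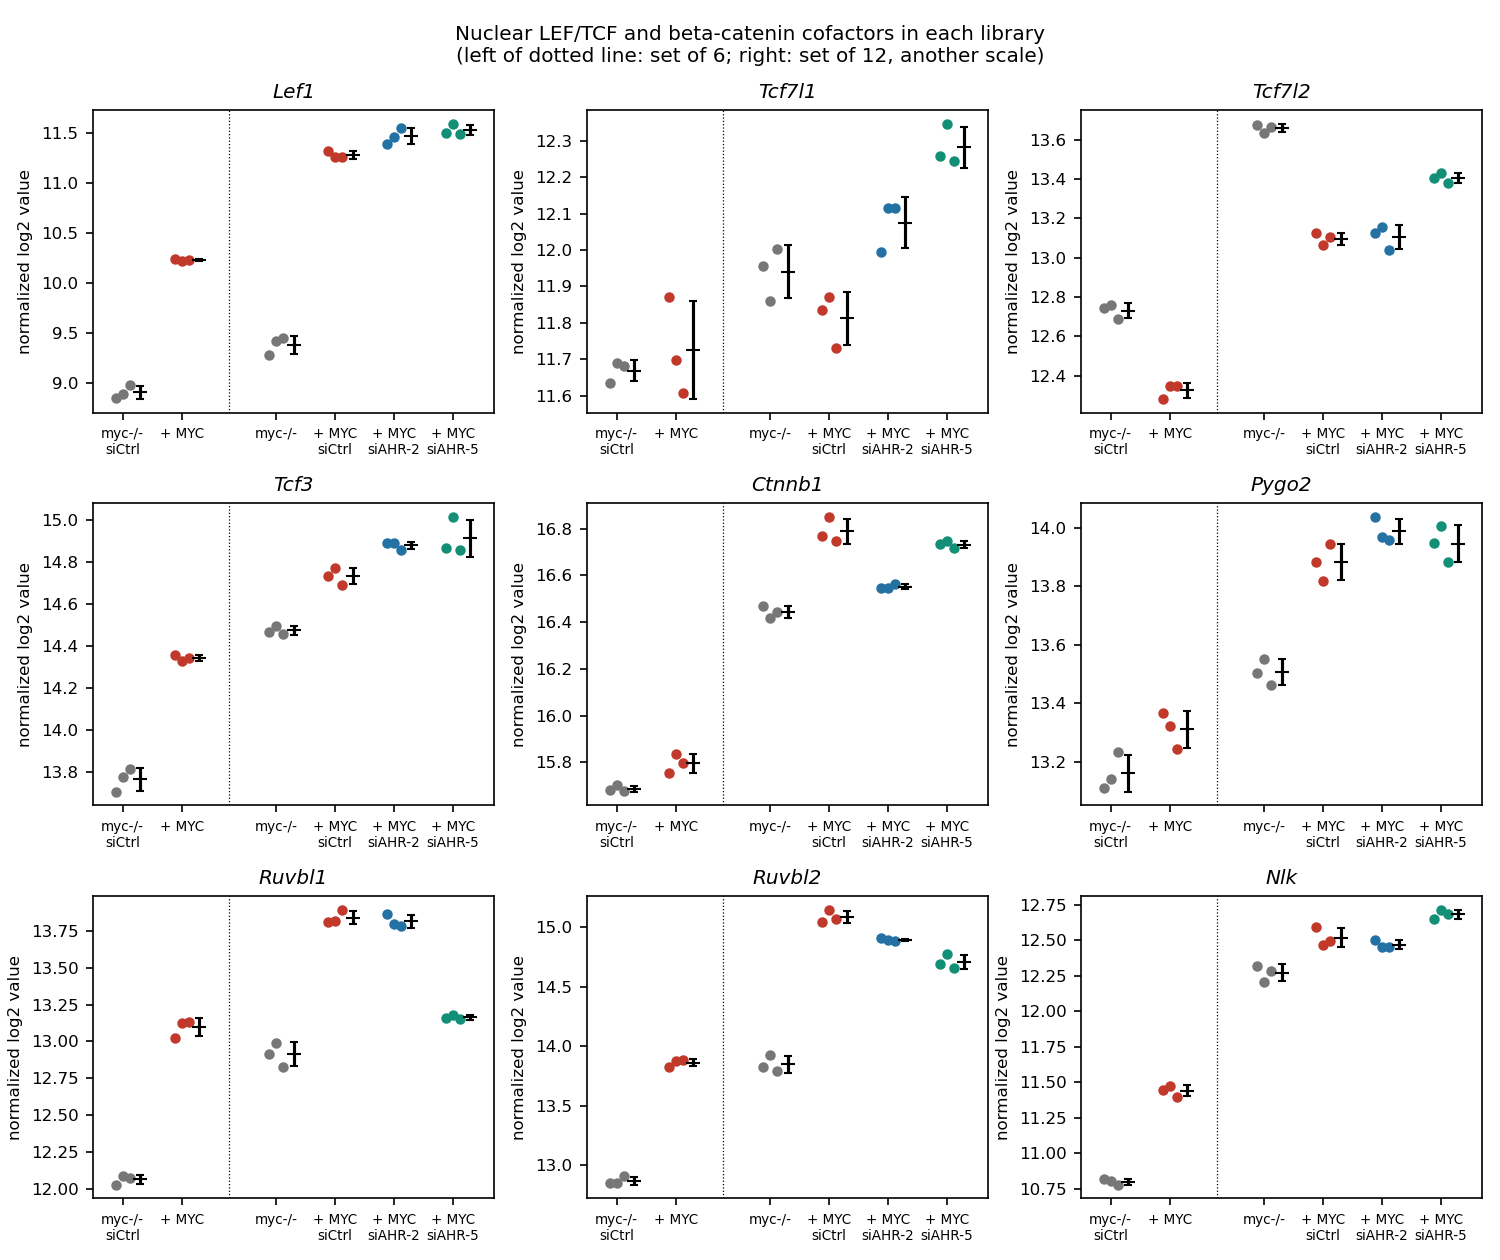
Normalized log2 value of each of the 9 genes (vertical axes, each panel with its own range) in each of the 18 libraries, by group, with the mean and SD of 3 libraries beside the points; the dotted line divides the set of 6 from the set of 12, which are on different scales. Lef1, Ruvbl1 and Ruvbl2 lie higher with MYC in both sets, Tcf7l2 lies lower, and Ruvbl1 lies between 13.15 and 13.18 with siAHR-5 against 13.81 to 13.89 with siCtrl.

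Ratios within a library, in which the scaling of the library cancels, set the LEF/TCF factors against each other. The values are not scaled for gene length, so only the change of a ratio is read and not its level. Lef1 minus Tcf7l2 was −3.89, −3.86 and −3.71 in myc-/- siCtrl and −2.04, −2.13 and −2.11 in myc-/- + MYC libraries, a difference of 1.73 in log2 units. The ratio went from a mean of −4.28 ± 0.103 (SD, n = 3) in myc-/- to −1.81 ± 0.0229 (SD, n = 3) in myc-/- + MYC siCtrl cells of the set of 12, a difference of 2.46. Against Tcf7l1 the ratio of Lef1 was higher with MYC by 1.27 and 2.03, and against Ctnnb1 by 1.22 and 1.56. In none of these 6 comparisons did the groups overlap, and each had p = 0.1 in the exact permutation test (2-sided), the smallest p that 3 against 3 libraries allow, so that no ratio can pass a threshold of 0.05 in this design.

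**Figure D2:**
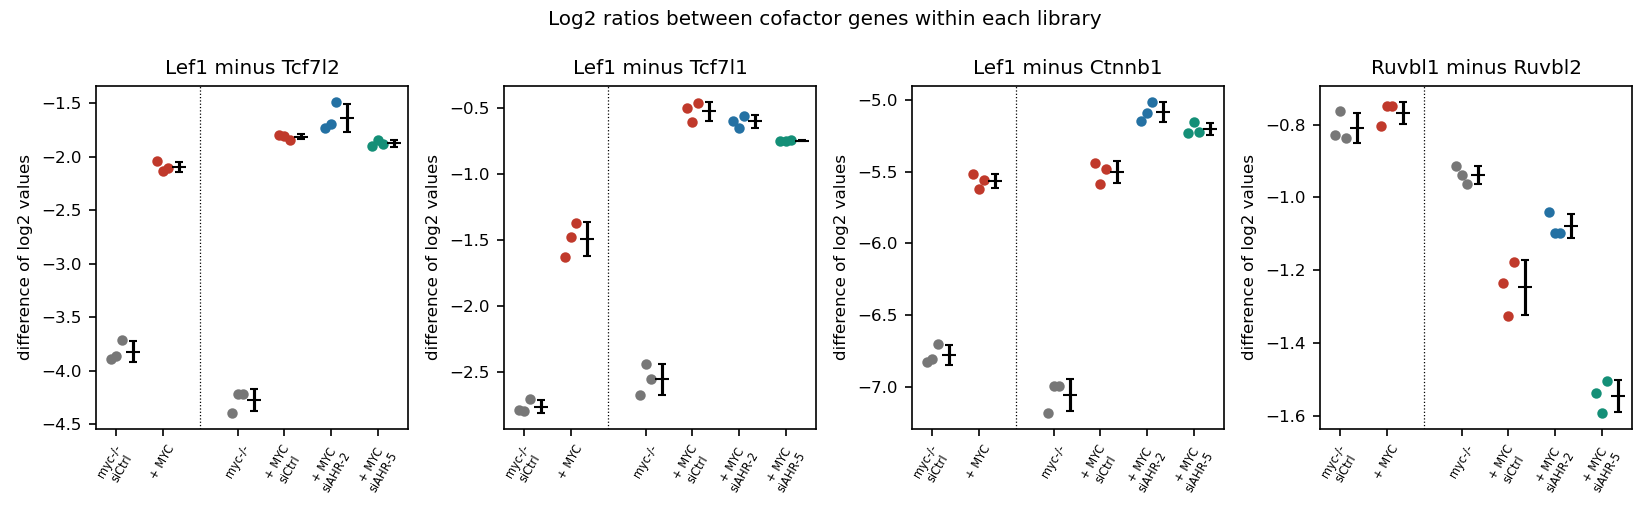
Log2 ratio of gene pairs within each library (vertical axes, difference of log2 values), by group, with the mean and SD of 3 libraries; the dotted line divides the set of 6 from the set of 12. Lef1 minus Tcf7l2 lies between −4.39 and −3.71 without MYC and between −2.13 and −1.48 with MYC, while Ruvbl1 minus Ruvbl2 overlaps between the groups of the set of 6 and is lowest with siAHR-5.

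β-catenin itself moved little. Ctnnb1 measured 15.68, 15.70 and 15.68 in myc-/- siCtrl and 15.76, 15.83 and 15.80 in myc-/- + MYC libraries, a log2FC of 0.11 (SE 0.0289, limma adjusted p = 0.00539). The myc-/- libraries lay between 16.42 and 16.47 and the myc-/- + MYC siCtrl libraries between 16.75 and 16.85, a log2FC of 0.34 (SE 0.0380, limma adjusted p = 3.86e-04). The groups did not overlap in either set, and both differences were short of the fold cutoff. RNA levels say nothing of the stability of the protein, by which β-catenin is mainly controlled.

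Pygo2 encodes a PHD-finger protein that binds β-catenin through BCL9. It measured 13.11, 13.14 and 13.23 in myc-/- siCtrl and 13.37, 13.32 and 13.24 in myc-/- + MYC libraries, with a gap of only 0.01 between the nearest libraries, and its log2FC was 0.15 (SE 0.0418, limma adjusted p = 0.00700). Its range was 13.46 to 13.55 in myc-/- and 13.82 to 13.94 in myc-/- + MYC siCtrl libraries, which gives a log2FC of 0.38 (SE 0.0424, limma adjusted p = 4.31e-04). Neither difference passed the fold cutoff.

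RUVBL1 and RUVBL2 are AAA+ ATPases that form a common ring complex, serve in the INO80 and TIP60 chromatin remodelers and the R2TP chaperone, and bind both β-catenin and MYC. Both rose with MYC in both sets. Ruvbl1 measured 12.03, 12.09 and 12.07 in myc-/- siCtrl and 13.02, 13.13 and 13.13 in myc-/- + MYC libraries, a log2FC of 1.03 (SE 0.0383, limma adjusted p = 6.13e-10). Ruvbl2 measured 12.86, 12.85 and 12.91 against 13.83, 13.88 and 13.88, a log2FC of 0.99 (SE 0.0315, limma adjusted p = 1.71e-10). In the set of 12, Ruvbl1 was 12.92, 12.99 and 12.83 in myc-/- and 13.81, 13.82 and 13.89 in myc-/- + MYC siCtrl libraries, a log2FC of 0.93 (SE 0.0497, limma adjusted p = 1.76e-05). All libraries with MYC lay above all without it for both genes and in both sets. Ruvbl2 went from 13.83, 13.93 and 13.79 to 15.04, 15.15 and 15.07 in the set of 12, a log2FC of 1.24 (SE 0.0475, limma adjusted p = 4.96e-06). The ratio of Ruvbl1 to Ruvbl2 overlapped between the groups of the set of 6 (difference 0.04, exact permutation p = 0.2) and was lower with MYC by −0.31 in the set of 12 without overlap (exact permutation p = 0.1). Leaving out 1 library, the former difference ranged from 0.028 to 0.065.

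NLK is the member for which the sets differed in call. Nlk measured 10.82, 10.80 and 10.78 in myc-/- siCtrl and 11.45, 11.48 and 11.40 in myc-/- + MYC libraries, a log2FC of 0.64 (SE 0.0405, limma adjusted p = 5.48e-08) and past the fold cutoff. In the set of 12 it measured 12.32, 12.21 and 12.29 in myc-/- and 12.60, 12.47 and 12.50 in myc-/- + MYC siCtrl libraries, a log2FC of 0.25 (SE 0.0502, limma adjusted p = 0.00568). The groups did not overlap in either set. The difference between the 2 log2FC, tested directly, was −0.39 (SE 0.0668, limma adjusted p = 1.61e-04), which is short of the fold cutoff. It also holds the siCtrl transfection, which is on opposite sides of the 2 MYC comparisons, and the different scales and any other difference of the sets.

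The E protein gene Tcf3 stood at the edge of the cutoff. It measured 13.71, 13.78 and 13.82 in myc-/- siCtrl and 14.36, 14.33 and 14.34 in myc-/- + MYC libraries, a log2FC of 0.58 (SE 0.0327, limma adjusted p = 2.22e-08), which is 1.49-fold against a cutoff of 1.50-fold. It was past the cutoff after quantile normalization (0.77) and without myc-/- siCtrl replicate 3 (0.60). Its range was 14.46 to 14.50 in myc-/- and 14.69 to 14.77 in myc-/- + MYC siCtrl libraries, which gives a log2FC of 0.26 (SE 0.0295, limma adjusted p = 4.72e-04).

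Counted together, 4 of the 9 genes rose and 0 fell in the set of 6, where 12.5% of all genes rose and 14.3% fell (26.8% called in all). In the set of 12, 3 rose and 0 fell, against 10.8% and 14.7% of all genes (25.5% in all). Quantile normalization turned the balance of all genes, from 1653 higher and 1884 lower to 1799 and 1684 in the set of 6, and from 1425 and 1936 to 1796 and 1660 in the set of 12. For 8 of 9 members the groups had no overlap in either set, which is read against 78.8% and 70.5% of all genes. The median log2FC of the members was 0.58 and 0.34, and that of all genes was −0.0038 and −0.00014. Without the fold cutoff, at an FDR below 0.05, 7 members passed as higher and 1 as lower, in each set. Of all genes, 76.2% passed that test in the set of 6 (37.3% higher and 39% lower) and 64.7% in the set of 12 (31.6% higher and 33.1% lower). In the direct test of the difference between the sets, 0 of 9 members passed both cutoffs with limma (7 had an unadjusted p under 0.05, as had 59.6% of all genes), while 16.5% of all genes did (6.79% higher and 9.67% lower). That is 896 higher and 1275 lower as deposited, and 1148 higher and 1036 lower after median centring. The difference between the sets is not one of MYC alone. It also takes in the different scales and any other difference of the sets. The siCtrl transfection, given to cells without MYC in one set and with MYC in the other, is a further part. At an FDR below 0.05, the difference between the sets was positive for 4 members and negative for 3, set of 12 minus set of 6. Of all genes, 54.9% passed that test (24.8% higher and 30.1% lower). Lef1 came nearest, with a difference of 0.58 (SE 0.0830, limma adjusted p = 3.29e-05), and was past the cutoff at 0.66 after median centring.

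**Figure D3:**
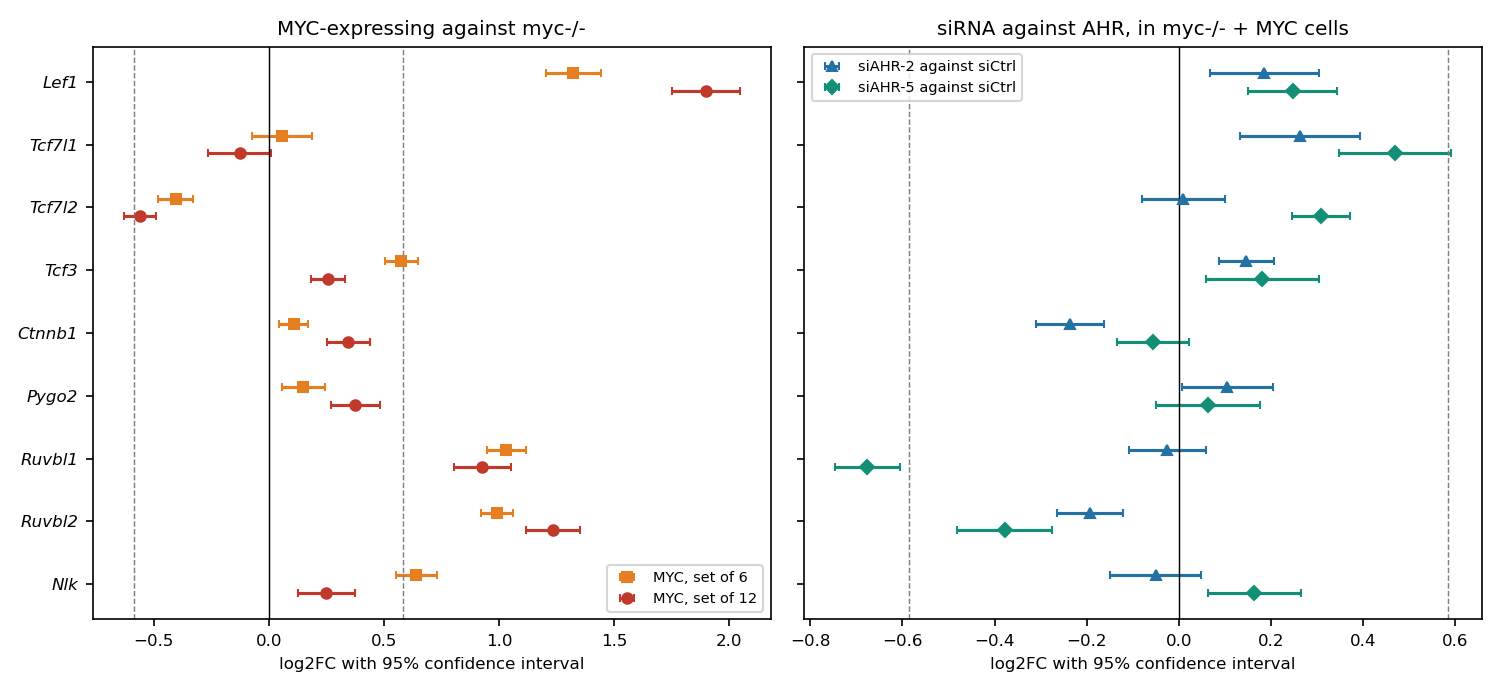
Log2FC of the 9 genes with its 95% confidence interval (horizontal axes) for MYC-expressing against myc-/- cells in each set (left) and for each AHR siRNA against siCtrl (right); dashed lines mark the fold cutoff of 1.50. Lef1, Ruvbl1 and Ruvbl2 lie right of the cutoff in both sets, and Ruvbl1 with siAHR-5, at −0.68, is the single point past it on the right panel.

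The siRNAs against AHR, a ligand-activated transcription factor, were each set against siCtrl in cells with MYC, and siAHR-2 and siAHR-5 share the same siCtrl libraries. With siAHR-2, 0 of 9 members passed both cutoffs with limma (6 had an unadjusted p under 0.05, as had 40.4% of all genes), where 0.47% of all genes passed (0.159% higher and 0.311% lower). That is 21 genes higher and 41 lower as deposited, and 15 higher and 53 lower after median centring. For siAHR-5, 0 members rose and 1 of 9 fell, where 2.32% of all genes were called (1.47% higher and 0.849% lower). That is 194 genes higher and 112 lower as deposited, 127 and 126 after quantile normalization, and 140 and 165 after median centring. At an FDR below 0.05, 3 members were higher and 2 lower with siAHR-2, against 29.3% of all genes (13.7% higher and 15.5% lower), and 5 were higher and 2 lower with siAHR-5, against 39.2% (21.1% higher and 18.1% lower). No overlap of the groups was seen for 6 members with siAHR-2 and 7 with siAHR-5, against 43.3% and 50.5% of all genes.

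The member that passed was Ruvbl1. It measured 13.86, 13.80 and 13.78 with siAHR-2 and 13.16, 13.18 and 13.15 with siAHR-5. With siAHR-2 these values overlapped those with siCtrl (log2FC −0.03, SE 0.0333, 95% interval −0.11 to 0.06, limma adjusted p = 0.635), and with siAHR-5 all 3 lay below them (log2FC −0.68, SE 0.0281, limma adjusted p = 2.04e-04), which left 0.626 of the siCtrl level. The 2 siRNAs differed directly from each other by −0.65 (SE 0.0261, limma adjusted p = 8.22e-05), although Ahr was lowered by both, by −1.29 and −1.39. That direct comparison called 1 of 9 members, as lower, and 2.18% of all genes (1.33% higher and 0.849% lower). At an FDR below 0.05 it had 4 members higher and 2 lower with siAHR-5, against 39.1% of all genes (22.1% higher and 17% lower), and 6 of 9 members did not overlap, against 49.5% of all genes.

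Ruvbl2 was lower with both siRNAs, short of the fold cutoff. It measured 14.91, 14.89 and 14.88 with siAHR-2 (log2FC −0.19, SE 0.0287, limma adjusted p = 0.00665) and 14.69, 14.77 and 14.66 with siAHR-5 (log2FC −0.38, SE 0.0413, limma adjusted p = 0.00162). Both stayed above the 13.79 to 13.93 of myc-/- cells. The order of the groups in the set of 12 was the same for both ATPases, myc-/- lowest, then siAHR-5, siAHR-2 and siCtrl, with siAHR-2 and siCtrl overlapping for Ruvbl1.

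Lef1 stayed high with both siRNAs. It measured 11.40, 11.46 and 11.55 with siAHR-2 and 11.50, 11.59 and 11.50 with siAHR-5, all above the 11.26 to 11.33 with siCtrl. The log2FC was 0.19 (SE 0.0473, limma adjusted p = 0.0366) and 0.25 (SE 0.0388, limma adjusted p = 0.00537), and neither passed the fold cutoff. The siRNAs overlapped with each other for this gene (difference 0.06, 95% interval −0.07 to 0.19, limma adjusted p = 0.418), and that difference ranged from 0.024 without siAHR-2 replicate 1 to 0.10 without siAHR-2 replicate 3.

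The other LEF/TCF genes were more different with siAHR-5 than with siAHR-2. Tcf7l1 measured 11.995, 12.11 and 12.12 with siAHR-2 and 12.26, 12.35 and 12.24 with siAHR-5, which gave log2FC values of 0.26 with the former (limma adjusted p = 0.0166) and 0.47 with the latter (limma adjusted p = 0.00133). Tcf7l2 lay between 13.04 and 13.15 with siAHR-2, overlapping siCtrl, and between 13.38 and 13.43 with siAHR-5, which gave log2FC values of 0.01 with the former (limma adjusted p = 0.907) and 0.31 with the latter (limma adjusted p = 7.01e-04). Leaving out 1 library, the log2FC of Tcf7l2 with siAHR-2 ranged from −0.015 to 0.043. Tested directly, siAHR-5 exceeded siAHR-2 by 0.21 for Tcf7l1 (limma adjusted p = 0.0182) and by 0.30 for Tcf7l2 (limma adjusted p = 0.00187). All of these differences were short of the fold cutoff.

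Ctnnb1 instead lay farther from siCtrl with siAHR-2 than with siAHR-5. It measured between 16.54 and 16.56 with siAHR-2, below all siCtrl libraries (log2FC −0.24, SE 0.0295, limma adjusted p = 0.00388), and between 16.72 and 16.75 with siAHR-5 (log2FC −0.06, SE 0.0313, limma adjusted p = 0.219, and 0.086 after quantile normalization). Leaving out 1 library moved the latter log2FC from −0.077 (without siCtrl replicate 3) to −0.025 (without siCtrl replicate 2). The siAHR-5 libraries exceeded the siAHR-2 libraries by 0.18 (limma adjusted p = 4.43e-04). Pygo2 had a log2FC of 0.11 and 0.06, Nlk of −0.05 and 0.16, and Tcf3 of 0.15 and 0.18, with siAHR-2 and siAHR-5 in that order. None of these 6 differences reached the fold cutoff, and some rest on single libraries: Nlk with siAHR-2 ranged from −0.077 (without siCtrl replicate 2) to −0.012 (without siCtrl replicate 1), and Pygo2 with siAHR-5 from 0.032 (without siCtrl replicate 2) to 0.095 (without siAHR-5 replicate 3).

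Partner genes were read from lists of the same pathway, and their counts stand beside the shares of all genes that rose (12.5% and 10.8%) and fell (14.3% and 14.7%) in the set of 6 and the set of 12. Of 11 measured coactivators other than the members, 1 rose (Tbl1x, log2FC 0.68, limma adjusted p = 1.44e-09) and 1 fell (Bcl9l) with MYC in the set of 6, and 0 rose and 1 fell in the set of 12. Bcl9l, the paralog of Bcl9 that also links β-catenin to Pygopus, was the gene that fell in both sets (means of 14.38 ± 0.106 without and 13.56 ± 0.0464 with MYC, SD, n = 3, in the set of 6, and of 14.92 ± 0.223 and 14.11 ± 0.0637, SD, n = 3, in the set of 12). Its log2FC was −0.81 in both sets, at limma adjusted p = 3.39e-08 in the former and 0.00115 in the latter. In myc-/- replicate 2 Bcl9l measured 14.66, below the 15.04 and 15.05 of the other replicates, and without that library its log2FC was −0.93 and 2 coactivators fell, the added one being Med12 (−0.72, against −0.51 with all libraries). The median log2FC of the list was −0.08 and −0.15.

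Of 13 corepressors and inhibitors, 4 rose and 1 fell in the set of 6, and 1 rose and 2 fell in the set of 12, with medians of 0.14 and 0.01. Hdac2, a histone deacetylase recruited by TLE proteins, rose in both sets (log2FC 0.99, limma adjusted p = 3.84e-10, and 0.96, limma adjusted p = 3.04e-06). Tle3, a Groucho corepressor, fell in both (−0.85, limma adjusted p = 9.93e-10, and −1.24, limma adjusted p = 1.34e-06). Its relative Tle2 rose by 1.25 in the set of 6, against a log2FC of only 0.12 in the other set. These log2FC differed by −1.14 (limma adjusted p = 1.00e-06), which also holds the transfection, the scales and any other difference of the sets. Cby1, which encodes the β-catenin antagonist Chibby, rose in the set of 6 (0.75), and Aes, a short Groucho relative, fell in the set of 12 (−0.63, and −0.58 and no longer past the cutoff without myc-/- replicate 2).

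Partners of the RUVBL ATPases in R2TP, TIP60, SRCAP and INO80 changed less than Ruvbl1 and Ruvbl2. Of 30 measured, 1 rose and 0 fell in the set of 6, and 4 rose and 0 fell in the set of 12, with median log2FC of 0.16 and 0.17, and no partner had a log2FC above 0.65 in either set. Ing3, a TIP60 subunit, rose in both (0.65, limma adjusted p = 3.13e-07, and 0.61, limma adjusted p = 2.02e-05), and Mcrs1 (0.64), Actl6a (0.61) and Uchl5 (0.59) rose in the set of 12. Of the 4 kinases and adaptors upstream of NLK that were measured, Tab1, an activator of the kinase TAK1, rose in both sets (0.79, limma adjusted p = 5.27e-08, and 0.83, limma adjusted p = 7.86e-05), and the other 3 did not pass.

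Partners of E proteins were the next list. Among 6 genes of E proteins and ID proteins, the latter known to bind E proteins and keep them from DNA, 0 rose and 3 fell in the set of 6, and 0 rose and 4 fell in the set of 12, with medians of −0.70 and −0.68. All of those that fell encode ID proteins: Id1 (−1.08 and −1.15), Id2 (−1.49 and −0.61) and Id4 (−1.41 and −1.76) in both sets, and Id3 in the set of 12 (−0.76). The E protein genes Tcf4 (0.22 and 0.28) and Tcf12 (−0.32 and −0.18) did not pass the cutoffs. Without myc-/- replicate 2, Id2 had −0.53 in the set of 12 and 3 genes of the list fell there. The symbol Tcf4 is the E protein E2-2 here and not TCF7L2.

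Of 17 measured genes known as targets of β-catenin and LEF/TCF, 3 rose and 4 fell in the set of 6, where 12.5% of all genes rose and 14.3% fell. In the set of 12, 4 rose and 6 fell, against 10.8% and 14.7% of all genes. The medians were −0.04 and −0.23, and on counts this small nothing particular to the targets is read from them. Rnf43, a ubiquitin ligase that removes Frizzled receptors, rose in both sets (1.65, limma adjusted p = 1.74e-09, and 0.62, limma adjusted p = 4.22e-05), as did Twist1 (0.77 and 0.61). Axin2, the negative feedback gene most often read as a WNT reporter, rose in the set of 6, with means of 9.74 ± 0.0145 without and 10.49 ± 0.124 with MYC (SD, n = 3; log2FC 0.75, limma adjusted p = 6.31e-07). The means were 9.41 ± 0.128 and 9.74 ± 0.0726 (SD, n = 3) in the other set, where its log2FC of 0.33 did not pass (limma adjusted p = 0.0129). Tnfrsf19 (1.38) and Ppard (1.01), the gene of the nuclear receptor PPARδ, rose in the set of 12. Wisp1, a secreted CCN protein, fell in both (−2.43 and −4.75), as did the cyclin gene Ccnd1 (−1.52 and −0.89); Fosl1 fell in the set of 6 (−1.94), and Plaur (−1.68) and Nkd2 (−1.23) in the set of 12.

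**Figure D4:**
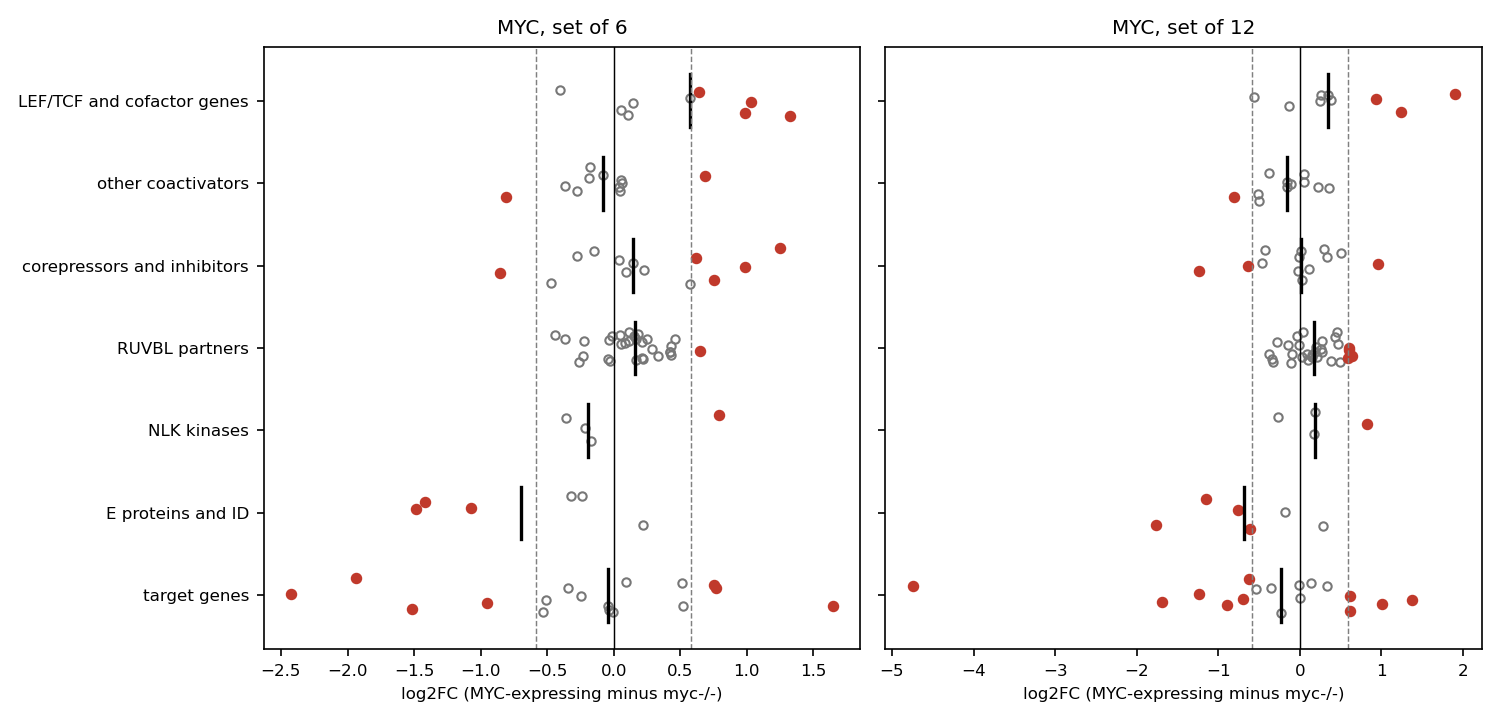
Log2FC with MYC (horizontal axes, MYC-expressing minus myc-/-, each panel with its own range) of every measured gene in 7 groups of genes; filled points passed both cutoffs, vertical bars are medians and dashed lines mark the fold cutoff of 1.50. The LEF/TCF and cofactor genes have medians of 0.58 (set of 6) and 0.34 (set of 12), and the E protein and ID group has −0.70 and −0.68.

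With either AHR siRNA against siCtrl, 0 genes of these 6 lists passed both cutoffs with limma. At an unadjusted p under 0.05 the numbers with siAHR-2 were 6 of 11 coactivators, 7 of 13 corepressors and inhibitors, 10 of 30 RUVBL partners and 8 of 17 targets, and with siAHR-5 they were 7, 8, 20 and 8, where 40.4% of all genes had such a p with siAHR-2 and 47.8% with siAHR-5. For the shorter lists the numbers were 3 of 4 NLK kinases and adaptors and 3 of 6 E protein and ID genes with siAHR-2, and 1 and 3 with siAHR-5. Between the siRNAs, 4 of the 81 measured genes of the lists passed (4.94%, beside 2.18% of all genes): with siAHR-5, Hdac1 (−0.60) and Map3k7, the gene of TAK1 (−0.61), were lower than with siAHR-2, and Fosl1 (0.72) and Plaur (0.71) were higher.

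Some markers moved with MYC together with these genes. Of the 12 fibroblast markers, 1 rose (Col3a1, 1.30) and 5 fell in the set of 6, where 12.5% of all genes rose and 14.3% fell. In the set of 12, 0 rose and 7 fell, against 10.8% and 14.7% of all genes. Without myc-/- replicate 2, 8 of these markers fell in the set of 12, Fap being added. The summed level of the fibroblast markers on the log2 scale went from 20.82 to 20.84 in myc-/- siCtrl to 19.90 to 19.99 in myc-/- + MYC, and from 21.95 to 22.18 in myc-/- to 20.23 to 20.25 in myc-/- + MYC siCtrl. Of 4 measured epithelial markers, Krt8 rose in both sets (1.70 and 1.17) and the other 3 passed in neither. Krt19 had a log2FC of −0.27 and 0.01, Epcam of −0.01 and 0.01 and Cdh1 of 0.004 and −0.04. The summed level went from 8.18 to 8.25 up to 8.63 to 8.81, and from 7.76 to 7.92 up to 8.77 to 9.11. In the set of 12 that sum was nearly Krt8 alone, with means of 7.70 and 8.87, beside 3.68 and 3.64 for Cdh1, the next highest. Of 5 measured lymphoid markers, Cd3e fell (−2.09 and −1.13), with Cd4 near its lowest value in every library. Of the 2 endothelial and 2 macrophage markers, 0 passed both cutoffs with limma in either set (2 and 2 at an unadjusted p under 0.05 in the set of 6, and 0 and 1 in the set of 12), with Cdh5 at −0.54 and −0.04, Cd68 at 0.35 and 0.27 and Csf1r at −0.31 and −0.36. An unadjusted p under 0.05 was reached by 77.5% of all genes in the former set and by 67.3% in the latter. With siAHR-5, where Ruvbl1 fell, 1 of the 12 fibroblast markers rose (Thy1, 0.75) and 0 fell, beside 1.47% and 0.849% of all genes. The summed level of these markers was 19.96 to 19.97, beside 19.99 to 20.03 with siAHR-2 and 20.23 to 20.25 with siCtrl, so that it was lower with both siRNAs. No marker was listed at exactly 0 in any library, since the floor of the values differs between genes. The part of these markers in the changes of the members was not tested.

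Genes with the most similar pattern were found by Pearson's r over the 18 libraries, after each set had been centred on its own mean, among 10716 genes with a mean of at least 5; r is given as a description, since libraries of a group share their treatment. For Lef1 they were Rhbdd2 (0.997), Tpd52 (0.995), Fam195a (0.995), Asf1a (0.995) and Adcy4 (0.994). For Ruvbl1 they were Rpl4 (0.988), Rnps1 (0.986), Fam173b (0.985), Dhx37 (0.985) and Creld2 (0.984), and for Ctnnb1 they were Tmem69 (0.954), Ahcyl2 (0.952), Map1b (0.950), Slc25a32 (0.944) and Polr3g (0.942). Among the members, the pairs Lef1 and Pygo2 (0.933), Lef1 and Ruvbl2 (0.932) and Ruvbl1 and Ruvbl2 (0.920) were most alike, and Tcf7l2 ran opposite to Ruvbl1 (−0.958), Ruvbl2 (−0.946) and Lef1 (−0.843).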

How the data were processed

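Per the study's methods and the submitters' processing notes, read quality was assessed with the NGS-QC-Toolkit, alignment to rn6 used HISAT2 2.1.0, a minimum of 10 total reads was required of a gene, and the authors normalized with DESeq2. The counter and annotation are not given in the sources used here. The authors deposited normalized log2 values of 13188 genes. The table is named as log CPM, but linear sums per library are 86.3 to 161 times the CPM total, so that the transformation, the depth and the precision it gives are unknown. Value columns without a sample numbered 0.

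Groups came from the labels, and columns were matched by name. The values as deposited were fitted with limma 3.58.1 in R 4.3.3 (lmFit, eBayes with trend), only the groups compared entering a fit, with Benjamini-Hochberg adjustment over all genes. Genes passed at a fold of 1.50 in either direction and an adjusted p of 0.01, the study's cutoffs. "Rose" and "fell" mean past both. The difference of MYC effects was an interaction over 12 libraries, set of 12 minus set of 6. Ratios were tested with exact permutation. The fits were also run on simulated data with independent normal noise and few changed genes. In the MYC comparisons most genes differed at an FDR below 0.05, so that run does not check these results. Members and lists were chosen with earlier results of these data known. All members are named; of the lists, up to 3 rises and 3 falls per MYC comparison, those past the cutoffs between siRNAs, and, chosen after their values were seen, Tcf4, Tcf12, Uchl5 and the values of a named gene in the other set. Promoters came from RefSeq (GRCr8). Alternatives were the cutoff, trend, fit over the set, scaling, low-value filter, pseudocount, block and leaving out each library. Figures used matplotlib 3.10.9 in Python 3.11.15.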

Additional observations from a re-analysis of the deposited data

Results flagged for a closer look

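Ruvbl1 differed between the 2 siRNAs against the same gene. It was lower with siAHR-5 than with siAHR-2 by a log2FC of −0.65 (limma adjusted p = 8.22e-05), and each of the 3 siAHR-5 libraries lay below each of the 3 siAHR-2 libraries. Single outlying samples were not tested for in these groups of 3 libraries.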

How the results depend on the processing

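With an FDR below 0.05 and no fold cutoff, the members called numbered 8 for MYC in the set of 6, 8 in the set of 12, 5 with siAHR-2, 7 with siAHR-5, 6 between the siRNAs and 7 for the difference between the MYC effects. After median centring that last count was 1 (Lef1, 0.66). Leaving out each library in turn gave 0 to 1 for it, with Lef1 called (0.59 to 0.61) without myc-/- + MYC siCtrl replicate 2 or 3, myc-/- replicate 2 or 3, or myc-/- siCtrl replicate 1. The same gave 4 to 5 members for MYC in the set of 6, and 3, 0, 1 and 1 in the other comparisons. Reversed signs all belonged to differences that had not passed. Leaving out libraries, Tcf7l1 in the set of 6 ranged from −0.016 (without myc-/- + MYC replicate 1) to 0.12 and Tcf3 between the siRNAs from −0.017 (without siAHR-5 replicate 2) to 0.061. With siAHR-2, Tcf7l2 ranged from −0.015 to 0.043, with −0.015 and −0.00018 without siAHR-2 replicate 2 or 1 and −0.00704 without siCtrl replicate 2, and Ruvbl1 from −0.050 to 0.0014, the latter without siCtrl replicate 3. Quantile normalization turned Ruvbl1 with siAHR-2 to 0.0076 and Ctnnb1 with siAHR-5 to 0.086, and median centring turned Tcf7l2 with siAHR-2 to −0.022. The causes were not tested. Leaving out myc-/- replicate 2 from the counts of the gene lists was chosen after seeing the data.

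Replicate numbers did not pair the libraries: the mean correlation of same-numbered deviations was between −0.03 and 0.10 over the comparisons. With the replicate number as a block, the counts were 4, 3, 0, 1, 1 and 0, as without it. The log2 ratios kept their direction and stayed within the spread between replicates under each alternative. The depth is unknown, so that no value could be weighed by its read count, and 3 libraries a group limit every error given.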
